A study of Rattus norvegicus with 8 samples.

Results

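Txnip, 4 further alpha-arrestin genes (Arrdc1, Arrdc2, Arrdc3 and Arrdc4) and the thioredoxin system that Txnip acts on (Txn1, Txn2, Txnrd1 and Txnrd2) were followed on whole-genome arrays of rat primary thymocytes. The members were chosen by the gene name that the arrays carry, with the suffix for predicted genes removed. The 9 genes, of 18413 named genes on the array, were measured by 12 of 41012 probes, 4 of which carried the name Txnrd1. The cells of both groups came from the thymus of adrenalectomized male Sprague-Dawley rats, so that all cells had been taken from animals without their main source of glucocorticoid, and the thymi of 3 animals were pooled for a preparation. The 4 Control arrays held RNA of thymocytes kept for 6 h without hormone, and the 4 Dex arrays held RNA of thymocytes kept for 6 h with 100 nM dexamethasone, a synthetic glucocorticoid that drives immature thymocytes into apoptosis. No genotype was altered. The study's methods speak of biological replicates, but of fewer than the arrays given here, and the labels do not state which of the 4 arrays of a group came from separate preparations. The p-values therefore measure only the spread between these arrays.

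Thioredoxins are small proteins that reduce disulfides in other proteins through a pair of cysteines. Thioredoxin reductases, which are selenoenzymes, restore them with electrons from NADPH. Txn1 and Txnrd1 work in the cytosol and nucleus, and Txn2 and Txnrd2 work in mitochondria. Txnip binds reduced thioredoxin and blocks it, and it is known as a gene that glucocorticoids raise in lymphoid cells. By its fold Txnip is an alpha-arrestin. The Arrdc proteins share that fold, and alpha-arrestins connect ubiquitin ligases of the NEDD4 family with membrane proteins that are to be internalized, such as glucose transporters and receptors.

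Each value rests on the 60-base probe that captured the labelled copy of the transcript. The sequences of 3 alpha-arrestin probes are shown because the results differ between these genes, and because Arrdc3 and Arrdc4 had the pair of member probes most alike. The capitals in the Arrdc3 and Arrdc4 sequences mark the 31 of 48 aligned bases that both probes share, which is 64.6% identity. All sequences are from the array's own design, 5′ to 3′, with the positions that the array files give on the rn3 build.
Arrdc2: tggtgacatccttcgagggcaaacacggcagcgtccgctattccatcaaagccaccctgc
Arrdc3: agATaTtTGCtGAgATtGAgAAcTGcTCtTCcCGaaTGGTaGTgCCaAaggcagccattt
Arrdc4: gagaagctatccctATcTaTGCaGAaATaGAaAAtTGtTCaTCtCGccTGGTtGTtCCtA
The Arrdc2 probe lies at chr16:19109261-19109320 on the plus strand, the Arrdc3 probe at chr2_random:479603-479662 on the minus strand and the Arrdc4 probe at chr1:123604724-123604783 on the minus strand. For the thioredoxin system, the probes of Txn1 and of 1 Txnrd1 transcript region are shown because their results are the lowest difference and the widest scatter among the members.
Txn1: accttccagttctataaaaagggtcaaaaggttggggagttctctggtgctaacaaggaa
Txnrd1, probe 3: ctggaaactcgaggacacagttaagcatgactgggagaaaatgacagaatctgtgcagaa
The Txn1 probe maps to chr5:75926523-75927863 and Txnrd1 probe 3 to chr7:23093333-23095211, both on the minus strand. These spans of 1341 and 1879 bases are longer than the 60 bases of the probes, so each probe crosses an intron and reads spliced RNA. No annotation of rn3 was used here, so the part of the gene under the other probes is not given.

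The arrays were read out as brightness per probe, and every level below is a quantile normalized log2 signal that can be compared between arrays but not between probes. Between 24911 and 34476 probes per array stood well above background. The arrays sat on 3 slides scanned on 2 days, and slide and treatment overlapped on 1 slide alone, that of Control 1 and Dex 3, which was also the whole of the first scan day. The largest source of difference among arrays of the same group set replicates 1 and 2 apart from replicates 3 and 4 and held 68% of the variance within groups. Control 1 and Dex 3 lay on opposite sides of that split, so their difference cannot tell treatment from it. All 11 markers of double positive thymocytes on the array, among them Cd3d, Cd4, Cd8a and Rag1, were well above background on all 8 arrays and none was called changed. Of these 11, 8 had the lower mean in Dex, and 2 had unadjusted limma p under 0.05, Cd8b at 0.52, fitted without Control 1, whose spot was left out, and Rag1 at -0.59. The summed log2 level of these markers was 18.24 to 18.39 in Control and 17.9 to 18.4 in Dex. Of 10 macrophage and dendritic cell markers, 9 were well above background on all 8 arrays, and their sum was 12.13 to 12.59 in Control and 12.09 to 13.1 in Dex. None was called, 6 had the higher mean in Dex and 4 the lower one, and the median difference was 0.16. The 3 with unadjusted limma p under 0.05 were all higher in Dex. Mrc1, a mannose receptor of macrophages, was higher by 2.12 (limma adjusted p 0.087), and the complement genes C1qc and C1qb by 0.97 and 0.84, with all Dex arrays above all Control arrays for Mrc1 and C1qc. Cd14, the marker with the lowest difference, was at -0.77. Of 9 markers of thymic epithelium and stroma, 8 had the higher mean in Dex and 0 had unadjusted limma p under 0.05. The keratin gene Krt18 and the collagen gene Col1a1 were among the 5 well above background on all 8 arrays, and Dcn and Pdgfra were the 2 that were so on none. Their sum was 11.87 to 12.37 in Control and 12.18 to 12.65 in Dex. The 4 B cell markers summed to 8.416 to 8.847 in Control and 7.823 to 9.144 in Dex, and the 3 erythroid markers to 12.37 to 14.53 and 12.57 to 14.84, with 0 called. The part of these other cell types in the members' values was not tested. Fewer cells of a type and less RNA per cell cannot be told apart in bulk RNA of a culture that is dying.

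Of 6 well-known glucocorticoid-induced genes, 5 rose in Dex after adjustment over all probes by limma. Ddit4, an inhibitor of mTOR signalling, was higher by 3.73 ± 0.19 (SE) on the log2 scale, and Tsc22d3, which encodes the leucine zipper protein GILZ, by 3.59 ± 0.18. Dusp1, a phosphatase of MAP kinases, was higher by 3.05, the transcription factor Klf9 by 1.98, and Fkbp5, a co-chaperone of the glucocorticoid receptor, by 1.73. Per1, a gene of the circadian clock and the other one of these 6, was at 0.73 with a limma adjusted p of 0.270.

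Among the 9 member genes, Arrdc2 alone passed the test, and it rose. The other 11 probes did not pass. Across all probes, 231 (0.563%) were called higher in Dex and 88 (0.215%) lower, so that 1 of 12 member probes called is a single gene and not a result on the family as a group. Of the member probes, 7 had the higher mean in Dex and 5 had the higher mean in Control. Counted without adjustment, 4 of 12 had p under 0.05 (Arrdc1, Arrdc2, Txn1 and Txnrd1 probe 1), beside 4327 of 41012 probes.

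**Figure D1:**
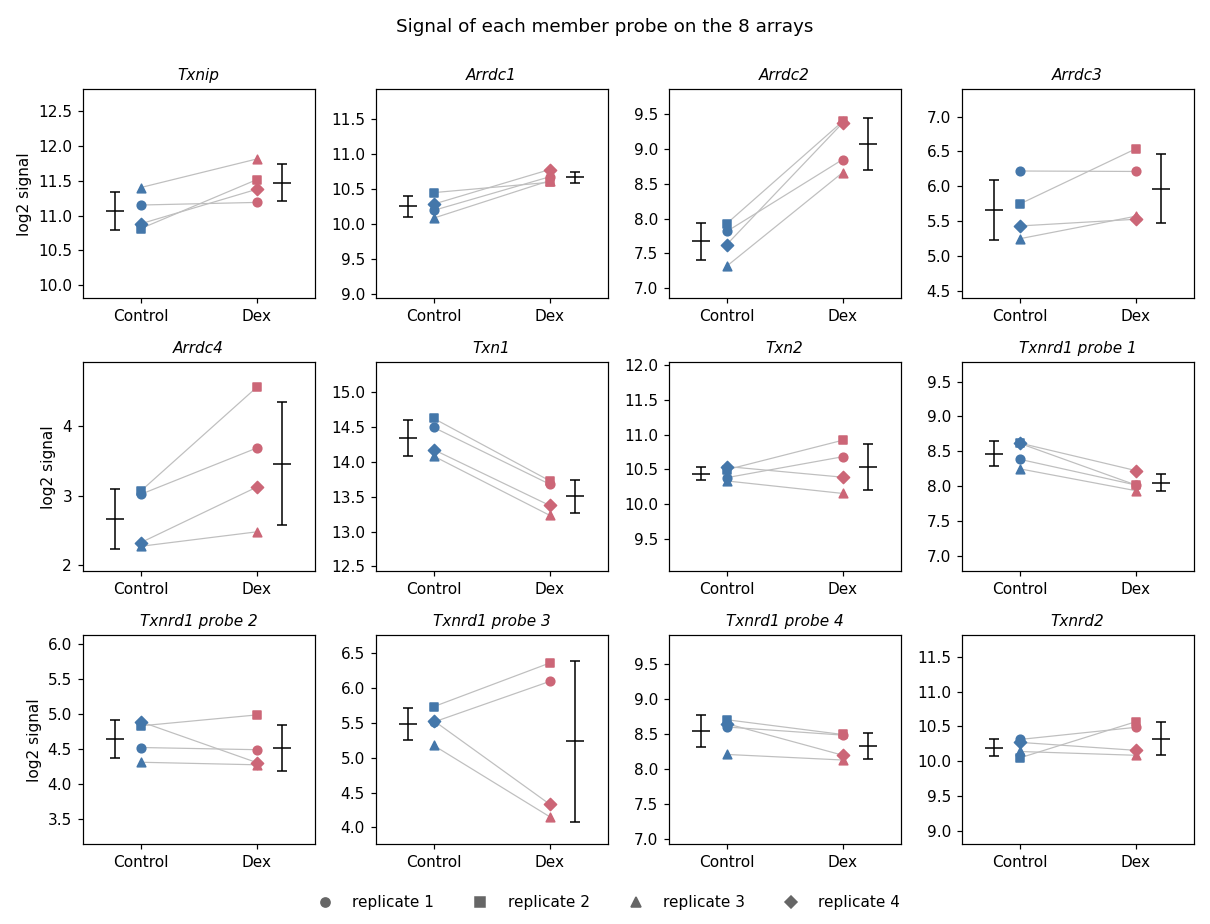
Levels of the 12 member probes on the 8 arrays (vertical axes, quantile normalized log2 signal, each panel spanning the same number of log2 units), with Control and Dex side by side, points for arrays and bars for mean ± SD (n = 4). Arrdc1 and Arrdc2 have all Dex points above all Control points, Txn1 and Txnrd1 probe 1 have all of them below, and the other 8 probes overlap.

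Txnip itself, the thioredoxin-binding alpha-arrestin, leaned upward without passing the test. Its level was 11.15, 10.81, 11.40 and 10.88 in Control 1 to 4, and 11.19, 11.51, 11.81 and 11.38 in Dex 1 to 4. Control 3 was higher than Dex 1 and Dex 4, so the groups overlapped. The means were 11.06 ± 0.27 in Control and 11.47 ± 0.26 in Dex (SD, n = 4), a difference of 0.41 with a 95% interval from -0.06 to 0.88 and a limma adjusted p of 0.549. The interval holds no change as well as a rise of up to 0.88, which is far under the differences of Ddit4 and Tsc22d3. Replicate by replicate, Dex was higher in 4 of 4 pairs, by 0.04, 0.70, 0.41 and 0.49. Pairs here are arrays of the same number, which the labels do not state to belong together. Arrays of unlike numbers deviated together as strongly. The Txnip probe lies at chr2:191323385-191323444 on the plus strand and 81.7% of its bases are A or T.

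Arrdc2, an alpha-arrestin that serves as an adaptor of NEDD4-type ligases, was the member with the clearest rise. Its level was 7.81, 7.93, 7.32 and 7.63 in Control 1 to 4, and 8.85, 9.39, 8.66 and 9.37 in Dex 1 to 4. Every Dex array stood above every Control array, and the lowest Dex array was Dex 3. The means rose from 7.67 ± 0.27 to 9.07 ± 0.37 (SD, n = 4), which is a difference of 1.40 ± 0.23 (SE) on the log2 scale, or 2.63-fold, with a 95% interval from 0.86 to 1.93. The limma adjusted p was 0.0435, near the threshold. It was 0.100 with the replicate number as a block, 0.0919 with 75th percentile scaling and 0.771 with the slide as a fixed block. Arrdc2 was called in 7 of the 19 alternatives that gave an adjusted p. Leaving out any 1 array other than Dex 3 also took the adjusted p above 0.05, up to 0.165. The direction held in 4 of 4 pairs, by 1.03, 1.46, 1.34 and 1.74. On the first scan day alone, Dex 3 was above Control 1 by 0.84, and on the second scan day the difference was 1.58. The first of these values also spans the split between replicates 1 and 2 and replicates 3 and 4.

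Arrdc1, an alpha-arrestin found on vesicles that bud from the plasma membrane, differed by less than Arrdc2 but with little scatter. Its level was 10.20, 10.45, 10.08 and 10.29 in Control 1 to 4, and 10.68, 10.60, 10.62 and 10.78 in Dex 1 to 4. The Dex arrays lay above all Control arrays, with the smallest gap between Control 2 and Dex 2. The means were 10.25 ± 0.15 and 10.67 ± 0.08 (SD, n = 4), a difference of 0.42 with a 95% interval from 0.08 to 0.75, and the limma adjusted p was 0.349, or 0.0384 with normexp background correction. Its probe lies at chr3:3232579-3232638 on the minus strand. Over all probes with a value on every array, 1887 (4.6%) had all Dex arrays above all Control arrays and 1847 (4.51%) had all of them below, beside 2 member probes each way.

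Arrdc3 and Arrdc4, a pair of related alpha-arrestins that both bind NEDD4-type ligases, had overlapping groups. Arrdc3 was at 6.22, 5.75, 5.25 and 5.43 in Control 1 to 4, and at 6.21, 6.54, 5.57 and 5.53 in Dex 1 to 4. The difference was 0.30 with a 95% interval from -0.41 to 1.01 and a limma adjusted p of 0.794. Replicates 1 and 2 were the brighter ones in both groups. Arrdc4 was at 3.02, 3.07, 2.27 and 2.33 in Control 1 to 4, and at 3.68, 4.55, 2.48 and 3.12 in Dex 1 to 4. It was well above background on 1 Control array and 1 Dex array only, and all other member probes were well above background on all 8 arrays. The difference of 0.79 had a 95% interval from -0.22 to 1.80 and a limma adjusted p of 0.603. With normexp background correction the Arrdc3 difference was 0.11 and that of Arrdc4 was 0.093. On the slide that held both groups, Dex 3 minus Control 1 was -0.65 for Arrdc3 and -0.54 for Arrdc4, opposite in sign to the pooled differences. Treatment and the split between replicates 1 and 2 and replicates 3 and 4 cannot be told apart in these values.

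**Figure D2:**
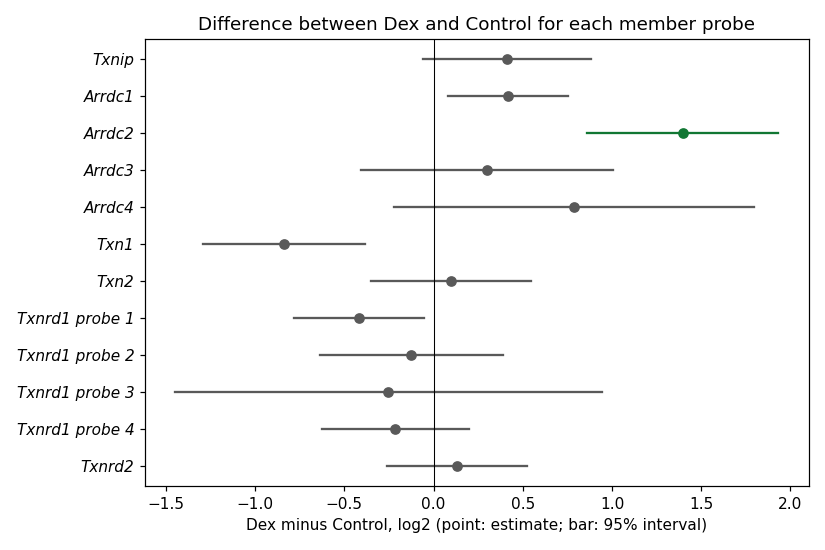
Dex minus Control of each of the 12 member probes (horizontal axis, log2 units) with the 95% interval of the limma fit on 4 Control and 4 Dex arrays. Arrdc2 has the highest estimate, at 1.40, Txn1 the lowest, at -0.84, and the interval of Txnrd1 probe 3 is the widest.

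Txn1, the cytosolic thioredoxin that Txnip blocks, was lower in Dex on every array and in every pair, but it did not pass the test over all probes. Its level was 14.49, 14.62, 14.08 and 14.17 in Control 1 to 4, and 13.68, 13.73, 13.23 and 13.37 in Dex 1 to 4. The lowest Control array, Control 3, was still above the highest Dex array, Dex 2. The means were 14.34 ± 0.26 and 13.50 ± 0.24 (SD, n = 4), a difference of -0.84 ± 0.20 (SE), or 1.79-fold, with a 95% interval from -1.29 to -0.39. The unadjusted p from the limma fit was 0.00262 and the adjusted p was 0.135, or 0.160 with the replicate number as a block. Txn1 did pass, as lower in Dex, with replicates 1 and 2 set apart from 3 and 4 as a block (limma adjusted p 0.0209), with the slide as a random block (0.027) and with normexp background correction (0.0462). The correlation within slides in the random block was negative (-0.235). It did not pass under the other alternatives with an adjusted p, among them 75th percentile scaling (0.736), the slide as a fixed block (0.771) and each array left out (0.187 to 0.381). Between arrays of the same number the differences were -0.81, -0.89, -0.85 and -0.80, with an SD of 0.0419 over the 4 pairs, the smallest among the member probes. Within both groups, replicates 1 and 2 were brighter than 3 and 4. On the first scan day alone, Dex 3 minus Control 1 was -1.26, in which treatment and this split between replicates cannot be told apart.

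Txn2, the mitochondrial thioredoxin, had no shift that exceeded its scatter. Its level was 10.38, 10.50, 10.34 and 10.54 in Control 1 to 4, and 10.68, 10.92, 10.16 and 10.39 in Dex 1 to 4. Dex 1 and Dex 2 were above all Control arrays, whereas Dex 3 was below all of them. The difference was 0.10 with a 95% interval from -0.35 to 0.55 and a limma adjusted p of 0.903. The Txn2 probe, at chr7:115868572-115877917 on the minus strand, spans 9346 bases of genome and thus also crosses at least 1 intron. Whether Txn1 and Txn2 differ in their response was not tested.

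**Figure D3:**
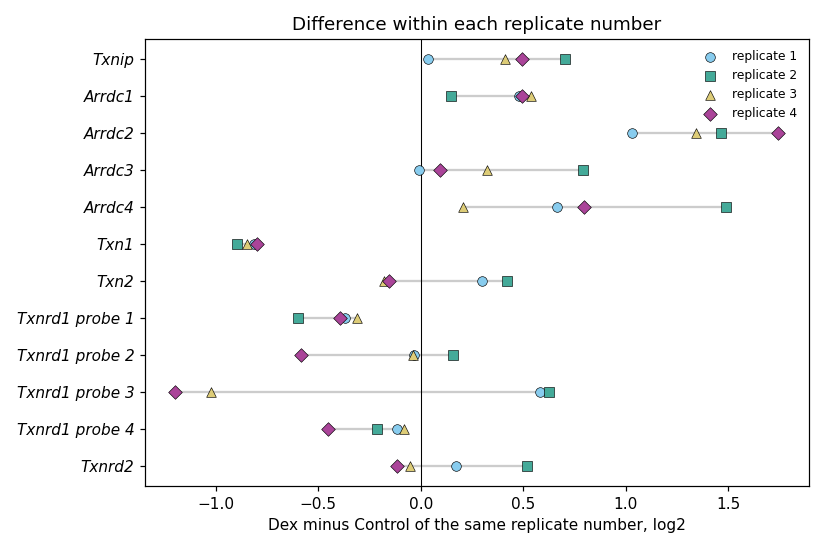
Dex minus Control within each replicate number (horizontal axis, log2 units) for the 12 member probes, 1 point per pair of arrays. The 4 points of Txn1 lie between -0.89 and -0.80, and those of Txnrd1 probe 3 fall on both sides of 0, at 0.58, 0.62, -1.02 and -1.20.

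Txnrd1, the cytosolic thioredoxin reductase, is the gene that the array names for 4 probes. Of these, 3 lie on the minus strand and 1, probe 2, on the plus strand, so that probe 2 is not counted as a reading of the same RNA. The 3 minus-strand probes all had the lower mean in Dex and none was called. Differences between the probes were not tested. Probe 1, for which the files place only 34 bases, at chr7:23075799-23075832, was at 8.39, 8.61, 8.25 and 8.62 in Control 1 to 4, and at 8.02, 8.02, 7.94 and 8.22 in Dex 1 to 4. All Dex arrays were below all Control arrays, with a difference of -0.42 (95% interval from -0.78 to -0.06) and a limma adjusted p of 0.387. Probe 4, at chr7:23076971-23077030, gave overlapping groups and a difference of -0.22 with a 95% interval from -0.63 to 0.20. Probe 2, at chr7:23075875-23075934, gave -0.12 ± 0.22 (SE). Probe 3, which spans an intron, was at 5.51, 5.73, 5.18 and 5.53 in Control 1 to 4, and at 6.09, 6.36, 4.15 and 4.33 in Dex 1 to 4. Dex 1 and Dex 2 were thus above every Control array and Dex 3 and Dex 4 below every one. The SD was 0.23 in Control and 1.15 in Dex, the difference was -0.25 with a 95% interval from -1.45 to 0.94, and the limma adjusted p was 0.906. The split of probe 3 in Dex runs along the same line, replicates 1 and 2 against 3 and 4, that set arrays of a group apart over all probes.

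Txnrd2, the mitochondrial reductase, was at 10.31, 10.05, 10.14 and 10.27 in Control 1 to 4, and at 10.49, 10.57, 10.09 and 10.16 in Dex 1 to 4. The groups overlapped, and the difference was 0.13 with a 95% interval from -0.26 to 0.52 and a limma adjusted p of 0.844. Its probe lies at chr11:84555118-84555177 on the minus strand. For both mitochondrial members, Txn2 and Txnrd2, the intervals leave out a change as large as the mean rise of Arrdc2.

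A signal-to-noise statistic like the one that the study's methods name, which sets the difference of means against the sum of both SDs, called more probes than limma. Its null here took every one of the 70 ways to split the 8 arrays and joined the values of all probes, whereas the methods drew random permutations of samples and probes and name fewer replicates, so it is not the same test. With the methods' nominal threshold it called 1472 probes (3.59%) higher in Dex and 1312 (3.2%) lower, and of the members Arrdc1 and Arrdc2 higher and Txn1 and Txnrd1 probe 1 lower. These are the 4 probes whose groups of arrays did not overlap. Txnip had a nominal p of 0.0444, which missed the threshold of 0.01. The nominal p of that statistic is not adjusted for the number of probes.

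The enzymes and partners around the members held no call. Of 18 genes for thioredoxin-linked redox enzymes, 0 were called either way and 4 had unadjusted limma p under 0.05. The list held peroxiredoxins, methionine sulfoxide reductases and ribonucleotide reductase, and also glutaredoxins and glutathione reductase, which belong to the glutathione system. The median difference was -0.11, beside a median of 0.00 over all probes. With the slide as a fixed block it was -0.66, beside -0.092 over all probes. Of the 18, 12 were lower in Dex, and so were 3 of the 4 with unadjusted p under 0.05. These were Rrm2, a subunit of ribonucleotide reductase, at -0.60, the methionine sulfoxide reductase Msrb2 at -0.50 and the glutathione reductase Gsr at -0.52. Prdx6, a peroxiredoxin that uses glutathione rather than thioredoxin, had the lowest p of that list and was higher in Dex, at 10.44 ± 0.12 in Control and 10.92 ± 0.14 in Dex (SD, n = 4), with a limma adjusted p of 0.276. Of 17 genes for other proteins with a thioredoxin fold, 0 were called, 2 had unadjusted p under 0.05, and the median was -0.15, with 12 of 17 lower in Dex. Txnl1, a thioredoxin-like protein of the cytosol that associates with the proteasome, had the lowest p there, with means of 14.47 ± 0.08 in Control and 13.83 ± 0.14 in Dex, a difference of -0.63 and a limma adjusted p of 0.124.

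Among the other arrestins, 0 of 4 genes were called, with 2 higher and 2 lower in Dex. Of the 4, 2 were well above background on all 8 arrays. The median was 0.00, or 0.25 with dim probes left out. Arrb1, the beta-arrestin that desensitizes G protein-coupled receptors, had the lowest p, with a difference of 0.61 and a limma adjusted p of 0.294. Of 5 genes of the NEDD4 family of ligases, the partners of alpha-arrestins, 0 were called and 0 had unadjusted p under 0.05 in the limma fit, with a median of -0.20, or -0.055 with all probes of a gene averaged. The gene with the lowest p was Nedd4a, at -0.30 with a limma adjusted p of 0.686. Of 9 genes for regulators and cargo of Txnip, such as its transcription factors and glucose transporters, 0 were called and 3 had unadjusted p under 0.05. The median was 0.16, with 7 of 9 higher in Dex. With 1 array left out it ran from 0.046 (without Dex 1) to 0.25 (without Dex 3). Hdac1, a histone deacetylase, had the lowest p of the 9 genes, with a difference of -0.62 and a limma adjusted p of 0.260. Of the other ones with unadjusted p under 0.05, the glucose transporter gene Slc2a4 was at 0.43. Prkaa2, a catalytic subunit of AMPK, was well above background on 0 Control arrays and 1 Dex array, so no difference is given for it. In these 5 lists together, 53 genes held 0 calls by limma, 10 had unadjusted p under 0.05, beside 4327 of 41012 over all probes. All Dex arrays lay above the Control arrays for 3 of the 53 and below them for 8, beside 4.6% and 4.51% over all probes. Both shares of the lists were above those of all probes, more so the share below, and this difference was not tested. The signal-to-noise statistic called 14 of the 59 genes that these lists and the 6 known induced genes make together, where limma called 5.

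**Figure D4:**
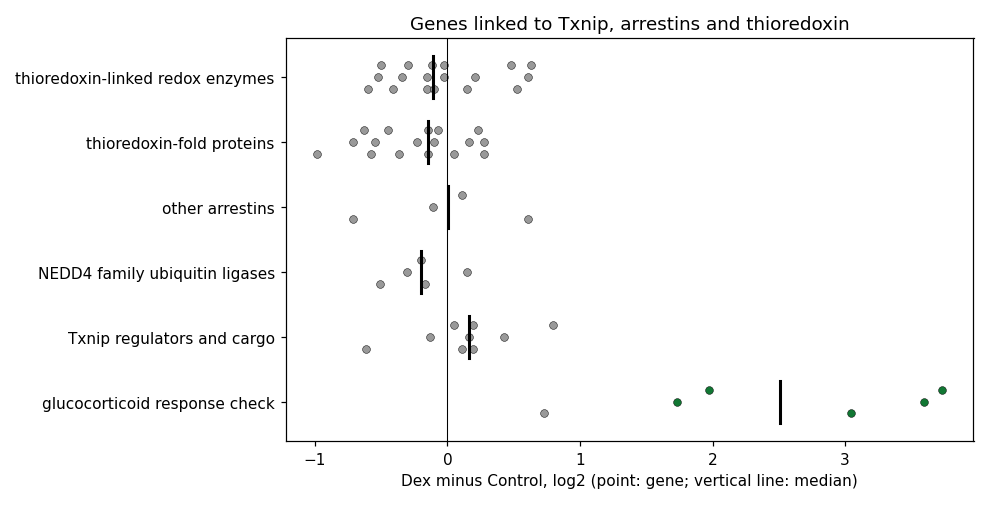
Dex minus Control of the brightest probe of each gene (horizontal axis, log2 units) in the gene lists around the members and in the list of known glucocorticoid-induced genes, 1 point per gene. The genes around thioredoxin and arrestins scatter about 0, with list medians from -0.20 to 0.16, and the known induced genes have a median of 2.51.

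With the group means removed, the levels of Arrdc3 and Arrdc4 ran together over the 8 arrays (Pearson r = 0.88), as did Arrdc4 and Txn1 (r = 0.892) and Txn2 and Txnrd1 probe 3 (r = 0.938). Arrdc4 was well above background on 1 Control array and 1 Dex array only, so its values of r rest largely on signal near background. Txnip had a negative r with all 11 other member probes, from -0.283 with Arrdc3 to -0.783 with Txnrd1 probe 4. These pairs are named after their values were seen, and all are descriptions over 8 arrays that share the split between replicates 1 and 2 and replicates 3 and 4. Over the 8 arrays with treatment left in, and among 12080 named genes well above background on all of them, the 5 most like Txnip were RGD1565640 (r = 0.948), RGD1305685 (r = 0.941), Tcea1 (r = 0.936), Hspa1a (r = 0.93) and Tox (r = 0.926). The 5 most unlike it were Ankrd27 (r = -0.962), Clip1, which the array lists as Rsn (r = -0.962), Myo1f (r = -0.954), LOC501065 (r = -0.944) and Srebf2 (r = -0.94). None of these 10 genes was called in Dex against Control. They are the extremes of 12080 genes over 8 arrays, and whether their r exceeds that of unrelated genes was not tested.

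Promoter windows of 250 bases before to 50 after the start site were taken from a table of RefSeq start sites on GRCr8 and used for 8 of the 9 member genes, as 9 windows. Txnip was not searched here. That of Arrdc2, the member that rose, is shown in full at chr16:18635633-18635932 on the plus strand, with the first transcribed base in capitals.
Arrdc2 promoter: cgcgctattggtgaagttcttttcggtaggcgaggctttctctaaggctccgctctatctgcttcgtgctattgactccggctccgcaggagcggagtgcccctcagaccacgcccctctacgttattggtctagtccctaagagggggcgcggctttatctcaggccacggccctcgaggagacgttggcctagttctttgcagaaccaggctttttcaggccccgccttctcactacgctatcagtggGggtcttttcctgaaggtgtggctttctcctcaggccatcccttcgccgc
The letters AGAACA, 1 arm of the palindrome that the glucocorticoid receptor binds, were not in this window on either strand. They were in 20.7% of all 33465 promoter windows and, of the 8 member genes searched, in the first Txnrd1 window alone (chr7:22764802-22765101, minus strand), at position -22 from the start. The capitals in the stretch mark them.
Txnrd1: aactgaaagcctAGAACAtgctttttttct
The E-box CACGTG, the core of the element through which MondoA and ChREBP act on Txnip and Arrdc4, was in 6.42% of all windows and, of the 8 member genes searched, which leave out Txnip, in the window of Arrdc4 alone (chr1:131793376-131793675, minus strand), at position -177 from the start.
Arrdc4: aaacggcctgtgCACGTGcactctggtgtc
The letters TGACNNNGC, the core of the antioxidant response element, were in 12.1% of all windows and in those of Arrdc4 and the second Txnrd1 window. Such a match is a description of the letters and not of binding, and sites farther from the start were not searched.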

How the data were processed

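RNA of Control and Dex thymocytes was hybridised to 1-color Agilent Whole Rat Genome arrays, 4 per group. Per the file headers, the authors scanned the arrays and extracted background-subtracted processed signal intensity with Agilent Feature Extraction 9.5.3.1, with positions on rn3. They also deposited quantile normalized log2 values, which the values recomputed here match (correlation of at least 0.99999901 per array). Control spots and spots with outlier flags were left out, the log2 intensity was quantile normalized, and 263 probes printed 10 times were summarised by median polish. The study names 3 replicates and not which, so all 8 arrays were used.

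Dex was compared with Control by limma 3.58.1 in R 4.3.3 (lmFit and eBayes, two-sided, 41012 probes, Benjamini-Hochberg adjusted p under 0.05, named "called"), after a test on simulated data. Every probe of a member is reported. Of the gene lists (brightest probe per gene), called genes are named, or the gene with the lowest p where none was called. The genes Cd3d, Cd4, Cd8a, Cd8b, Rag1, Cd14, Krt18, Col1a1, Dcn, Pdgfra, Mrc1, C1qb and C1qc are named as examples of marker lists, chosen after their values were seen, and Rrm2, Msrb2, Gsr, Prkaa2 and Slc2a4 after their values were seen, Per1 as the check gene that missed the threshold, and the rest as the 5 most like and unlike Txnip. The members and lists were chosen with earlier results of these data known. Same-numbered arrays deviated together (r = 0.397, 0.129, 0.550 and 0.184), which the labels do not explain, and unlike numbers did so as strongly (Control 1 with Dex 2, r = 0.401). The number of arrays limits the precision. The alternatives were 75th percentile scaling, normexp with an offset of 50, the deposited table, a filter on dim probes, blocks for replicate, slide and scan day, array weights, all probes of a gene averaged, the methods' signal-to-noise statistic with a null over all 70 assignments (nominal p under 0.01 and fold change over 1.2) and leaving out each array.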

Additional observations from a re-analysis of the deposited data

How the results depend on the processing

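Over the alternatives, 211 of 239 values of member probes kept their direction and their side of the threshold, 12 kept the direction but were no longer called, 7 became called and 9 changed sign. Among the 7 are Arrdc1, Txn1 and Txnrd1 probe 1 under the signal-to-noise statistic, by its nominal threshold and not by an adjusted p. Arrdc2 was higher in Dex under every alternative run (0.84 to 1.58) and called in 7 of the 19 that gave an adjusted p (limma adjusted p from 0.00419 to 0.771). Txnip stayed between 0.30 and 0.66 and was called in 0 of 19. Txn1 stayed between -1.26 and -0.70, and limma called it with normexp, with the slide as a random block and with a block that sets replicates 1 and 2 apart from 3 and 4. Arrdc1 was called with normexp.

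Instead of 319 probes in all, of which 1 was a member probe, limma called 166 and 0 with 75th percentile scaling, 915 (497 higher and 418 lower, against 231 and 88) and 3 with normexp, 81 and 0 with the replicate block, 1 and 0 with the slide as a fixed block, 1838 and 2 with the slide as a random block, 670 and 2 with the block of replicates 1 and 2 apart from 3 and 4, and 562 probes in all without dim probes. The signal-to-noise statistic called 2784 and 4. With the scan day as a block, chosen after seeing the data, the counts were 190 and 0, and on the second scan day alone 56 and 0. Without 1 array they ran from 96 (without Control 4) to 249 (without Dex 3), and 0 to 1 member probes. The slide correlation of the random block was negative (-0.235), and the fixed slide block rests on Control 1 and Dex 3. Of the pathway genes, 5 were called, against 3 with 75th percentile scaling, 8 with normexp, 0 with the slide as a fixed block, 9 with it as a random block and 14 by the signal-to-noise statistic.

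With the slide as a fixed block, Arrdc3 (-0.65), Arrdc4 (-0.54), Txn2 (-0.23) and Txnrd2 (-0.23) changed sign. That block also took Txnrd1 probe 3 from -0.25 to -1.36. Its values rest on Control 1 and Dex 3, on opposite sides of the split between replicates 1 and 2 and replicates 3 and 4. Treatment and split cannot be told apart in them. Txnrd1 probe 3 became positive with array weights (0.13), on the second scan day alone (0.12), without Dex 3 (0.11) and without Dex 4 (0.05), within a range from -0.63 to 0.11 without 1 array. Txn2 ran from -0.030 (without Dex 2) to 0.22 (without Dex 3). Arrdc3 ran from 0.11 (without Dex 2) to 0.49 (without Control 1), and Arrdc4 from 0.42 (without Dex 2) to 1.11 (without Dex 3), with none of these called. Txnrd1 probe 2 ran from -0.28 to -0.040 and Txnrd2 from 0.050 to 0.21. The cause of these changes was not tested. The replicate block changed no call of a member other than Arrdc2. The list medians moved beyond their spread in 4 cases, the NEDD4 family with all probes averaged (-0.055), the redox enzymes with the fixed slide block (-0.66), and the known induced genes with that block (2.71) and normexp (2.23).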
